A study of Mus musculus with 21 samples.

Results

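Neat1 and Malat1 are long noncoding RNAs that stay in the nucleus. They were described here across cells labelled as blood neutrophils (PMNs) and kidney tubular epithelial cells (TECs) of mice with and without ischemia-reperfusion injury (IRI). The PMN libraries also held macrophage and tubule transcripts, with values given below. The pair is 2 of the 54123 genes to which the deposited transcripts were assigned. The pair was chosen by a measured value, the higher Neat1 reads of PMNs after IRI in these same libraries, so that contrast is given below as a description with no test.

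The study asked how remote ischemic preconditioning (RIPC), brief inflations of a pressure cuff around the hind limb, changes gene expression in both cell types before and after kidney injury. All animals were wild-type, per the study's methods C57BL/6 males, and all cells were taken 24 hours after surgery. In the IRI groups the renal pedicles were clamped and released, and in the sham groups the animals had surgery without clamping. Control animals had the cuff procedure without the RIPC pressure. PMNs came as 2 libraries of sham control, 3 of sham with RIPC, 2 of IRI control and 3 of IRI with RIPC. TECs came as 3 libraries of sham control, 3 of sham with RIPC, 2 of IRI control and 3 of IRI with RIPC. The labels do not say whether the libraries of a group came from separate animals, so the p-values measure the spread between these libraries only. TECs were drawn from digested kidney with beads against prominin-1, and each library is a bulk of sorted cells. Priming was on poly(A) tails, full-length cDNA was amplified, and single 50-base reads were made. No described step marked the strand.

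Neat1 builds paraspeckles, nuclear bodies that hold RNA-binding proteins such as SFPQ and NONO. Its gene makes a short RNA, which is cut after a canonical poly(A) signal and polyadenylated, and a long RNA, which runs past that signal, is the form that scaffolds paraspeckles, and ends in a triple helix after cleavage by RNase P. Malat1, its neighbour, collects in nuclear speckles, the stores of splicing factors, and ends in the same kind of triple helix. Neat1 is known as an RNA that many stresses induce, hypoxia among them.

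Both genes lie on the minus strand of mouse chromosome 19 in build GRCm38 and are annotated as lincRNAs. Neat1 (ENSMUSG00000092274.3) spans chr19:5824708-5845478 and Malat1 (ENSMUSG00000092341.3) spans chr19:5795690-5802672, with 22035 bases between them. The annotation gives Neat1 4 transcripts. Neat1-201 is the long form, 1 exon of 20771 bases, and Neat1-202 is the short form, 3004 bases in 2 exons (chr19:5844925-5845476 and chr19:5842307-5844758) at the 5′ end of the gene. Malat1 also has 4 transcripts: Malat1-201, 1 exon of 6983 bases, and 3 spliced transcripts, of which Malat1-203, 485 bases in 2 exons (chr19:5802238-5802671 and chr19:5801916-5801966), lies at the 5′ end.

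The 3′ ends show how the forms differ, and they are printed 5′ to 3′ from the reference. In the short form of Neat1 (last 80 bases, chr19:5842307-5842386) the capitals mark the poly(A) signal AATAAA, which ends 14 bases before the end of the transcript. In the long form (last 110 bases, chr19:5824708-5824817) they mark a U-rich stretch (TTTTGCTTTT in DNA letters) and the A-rich stretch AAAAAGCAAAA with which the transcript ends, the parts that pair in the triple helix. Malat1-201 holds the same U-rich and A-rich letters (chr19:5795972-5796061), 328 and 292 bases before its annotated end, and after them an AATAAA 16 bases before that end (chr19:5795690-5795749).
Neat1-202 end: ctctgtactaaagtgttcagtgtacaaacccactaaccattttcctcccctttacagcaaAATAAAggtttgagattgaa
Neat1-201 end: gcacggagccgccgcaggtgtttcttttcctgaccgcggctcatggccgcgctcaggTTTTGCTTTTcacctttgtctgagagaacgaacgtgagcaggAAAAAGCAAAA
Malat1-201 triple helix region: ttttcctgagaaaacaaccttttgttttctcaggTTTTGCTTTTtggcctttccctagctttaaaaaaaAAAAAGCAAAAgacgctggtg
Malat1-201 end: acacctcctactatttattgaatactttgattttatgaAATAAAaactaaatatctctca

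Searched on the sense strand in the last 150 bases of 135671 annotated transcripts, AATAAA occurs in 31.0%, TTTTGCTTTT in 0.130% and AAAAAGCAAAA in 0.0575%. The AATAAA letters are thus common at transcript ends, and the other letters are rare there. The strings differ in length, which by itself makes the shorter one more frequent.

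The libraries held 20881334 to 30507235 reads in PMNs and 21479605 to 51624602 in TECs. Mitochondrial transcripts took 1.43% to 13.0% of reads in PMNs and 13.0% to 29.0% in TECs. Of 8 neutrophil markers (S100a8, S100a9, Csf3r, Cxcr2, Retnlg, Ly6g, Mmp8, Mmp9) all were read in every PMN library, with a sum of 5530 to 25881 RPM (reads scaled to the library total). The sum was 1.26 to 106 in TECs, where Ly6g was at 0 in 9 and Retnlg at 0 in 6 of 11 libraries. The 7 proximal tubule markers, Slc34a1 and Miox leading, summed to 919 to 7429 RPM in TECs. The PMN libraries, labelled as blood, also held 152 to 2249 RPM of proximal tubule markers and 480 to 8679 of 6 macrophage markers (C1qa, C1qb, C1qc, Adgre1, Csf1r, Ms4a7), none at 0 in any of them. Replicate 2 of the sham control PMNs held 4704 RPM of thick limb and distal markers, mostly Umod, against 37.6 to 683 in the other PMN libraries. Replicate 2 of the sham control TECs was the lowest TEC library in both Neat1 and Malat1. Several results that rest on these libraries are given with and without them.

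Both RNAs were read deeply in every library. Neat1 had 8592 to 12538 reads in PMNs after sham surgery, 35558 to 56089 in PMNs after IRI, 6512 to 23681 in TECs after sham surgery and 16766 to 42062 in TECs after IRI. Malat1 had 20358 to 64523 reads in PMNs and 70826 to 291445 in TECs, where it took up to 1.01% of all reads of a library. Ranked by TPM, reads per length scaled to the library, Malat1 stood between place 16 and place 32 in TECs and between place 37 and place 89 in PMNs. The Malat1 rank rests on Salmon's assignment of reads to Malat1-203, a short transcript that held 97.8% to 98.7% of the gene's TPM and shares most of its sequence with Malat1-201. Neat1 stood between place 534 and place 4301. In RPKM (RPM per kilobase) over the longest transcript, the Neat1 level per length was 6.07 to 88.5 and the Malat1 level 124 to 1451. Within each cell type and surgery the lowest Malat1 level per length lay above the highest Neat1 level.

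**Figure D1:**
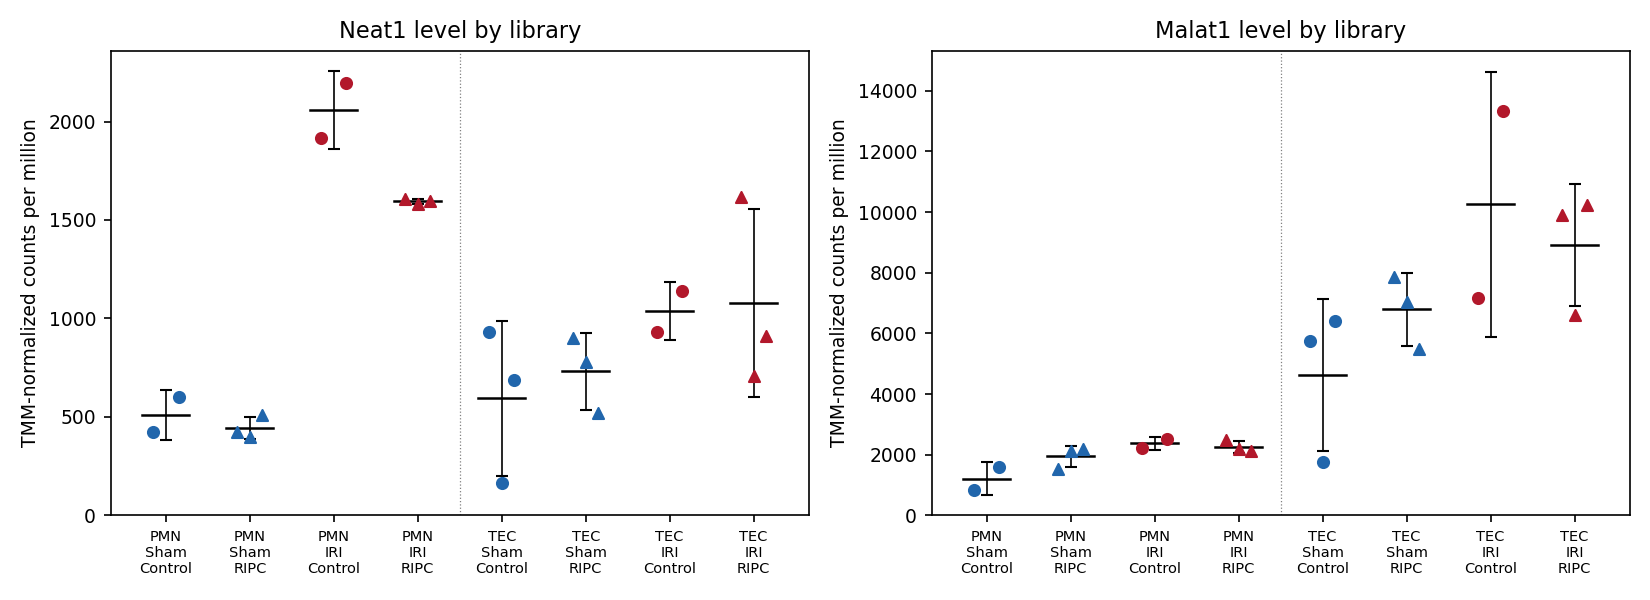
Levels of Neat1 (left) and Malat1 (right) in TMM-normalized CPM, by cell type, surgery and procedure. Each point is a library (blue, sham surgery; red, IRI; circles, control; triangles, RIPC), lines are group means and bars are SD. The 5 PMN libraries after IRI sit between 1582 and 2197 for Neat1, above the 5 after sham surgery (397 to 600). For Malat1 the 10 PMN libraries lie between 827 and 2527 and the TEC libraries reach 13340.

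Across the 8 groups, Neat1 was highest in PMNs after IRI and lowest in PMNs after sham surgery. The levels that follow are CPM (counts relative to the library size), scaled by TMM over all 21 libraries so that groups can be compared, and not corrected for length. The mean Neat1 level was 2057 ± 198 (SD, n = 2) in IRI control PMNs and 1595 ± 12.7 (n = 3) in PMNs after IRI with RIPC. It was 1080 ± 477 (n = 3) in TECs after IRI with RIPC, 1037 ± 147 (n = 2) in IRI control TECs, 731 ± 194 (n = 3) in sham RIPC TECs and 594 ± 392 (n = 3) in sham control TECs. It was 511 ± 126 (n = 2) in sham control PMNs and 444 ± 57.7 (n = 3) in sham RIPC PMNs. Of the neighbours in this order, the PMN groups after IRI did not overlap each other, and IRI control TECs (933 to 1141) did not overlap sham RIPC TECs (518 to 899). The other 5 pairs of neighbours overlapped.

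Malat1 had another order, with all 4 TEC groups above all 4 PMN groups in their means. The mean Malat1 level was 10253 ± 4366 (n = 2) in IRI control TECs, 8911 ± 2003 (n = 3) in IRI RIPC TECs, 6791 ± 1214 (n = 3) in sham RIPC TECs and 4638 ± 2509 (n = 3) in sham control TECs. In PMNs it was 2371 ± 221 (n = 2) in the IRI control group, 2264 ± 202 (n = 3) in the IRI RIPC group, 1947 ± 355 (n = 3) in the sham RIPC group and 1212 ± 544 (n = 2) in the sham control group. Each pair of neighbours in this order overlapped in its libraries. The TEC groups met the PMN groups only through replicate 2 of the sham control TECs, at 1765, since the other 10 TEC libraries lay at 5477 or more.

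In PMNs, Neat1 after IRI stood at several times its level after sham surgery, in every library and in both the control and the RIPC arm. This is the value by which the pair was chosen. After sham surgery the Neat1 level was 422 and 600 in the control libraries and 426, 397 and 508 in the RIPC libraries. The IRI levels were 1917 and 2197 in the control libraries and 1607, 1582 and 1595 in the RIPC libraries. The surgeries did not overlap. In the edgeR fit to the 10 PMN libraries, averaged over both arms, Neat1 was 3.77-fold higher after IRI, a log2 difference of 1.92 ± 0.18 (SE). Malat1 moved less: 827, 1596, 1539, 2122 and 2181 after sham surgery, and 2214, 2527, 2494, 2185 and 2113 after IRI. Its log2 difference was 0.58 ± 0.21, and the surgeries overlapped. Of 25002 genes in this contrast 0.416% were called at an adjusted p under 0.05 (0.364% higher and 0.052% lower), a background from which nothing is read for the pair.

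The markers of other cells moved with surgery in the same PMN libraries. The macrophage sum was 2491 to 8679 RPM after sham surgery and 480 to 1320 after IRI, without overlap. The proximal tubule sum was 284 to 2249 after sham surgery and 152 to 234 after IRI, also without overlap, and the neutrophil sums overlapped (5530 to 25881 and 10371 to 25692). The part of these cells in the Neat1 difference was not tested. In bulk libraries fewer cells of a type and less RNA per cell cannot be told apart. Without the sham control PMN library rich in Umod, the log2 difference was 2.12 ± 0.23 for Neat1 and 0.92 ± 0.20 for Malat1.

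Both Neat1 forms had more reads in PMNs after IRI. In RPM, here not TMM-scaled, the long form Neat1-201 was at 260 to 371 after sham surgery and at 680 to 1369 after IRI. The short form Neat1-202 was at 28.9 to 180 after sham surgery and at 205 to 652 after IRI. Neither form overlapped between the surgeries. The share of Neat1 reads on the long form was 66.1% and 66.8% in sham control PMNs and 92.8%, 67.8% and 74.6% in sham RIPC PMNs. It was 72.7% and 74.4% in IRI control PMNs and 51.0%, 57.8% and 84.4% in IRI RIPC PMNs. The surgeries overlapped in this share, and its mean was 73.6% ± 11.2 after sham surgery and 68.1% ± 13.5 after IRI (n = 5 each).

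How far the reads can tell the forms apart was computed from the reference. Of the 2955 positions at which a 50-base read can start on the short form, 2907 are also found in the long form and 6 are found in no other transcript. Of the 20722 positions on the long form, 17195 are its own. The split between forms is therefore an estimate by Salmon, the quantification program, from the coverage of the long form outside the shared 5′ part. The other Neat1 transcripts added little, since Neat1-203 had at most 277 reads in a library and Neat1-204 had 0 in every library.

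In TECs a larger share of Neat1 reads lay on the long form after IRI. This form took up most Neat1 reads after IRI and a minority in 5 of 6 libraries after sham surgery. Its share was 62.2%, 34.9% and 29.6% in sham control TECs and 34.6%, 31.6% and 33.7% in sham RIPC TECs. The shares after IRI were 76.1% and 85.4% in control TECs and 83.5%, 81.2% and 91.9% in RIPC TECs. Every library after IRI lay above every library after sham surgery. The mean was 83.6% ± 5.81 (n = 5) after IRI and 37.8% ± 12.1 (n = 6) after sham surgery. Averaged over the control and RIPC arms the difference was 45.4 percentage points (two-sided exact permutation test within arms, p = 0.010, adjusted p = 0.035 over 14 such tests). The smallest p this design allows is 0.005. Without replicate 2 of the sham control TECs the difference was 43.5 points.

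**Figure D2:**
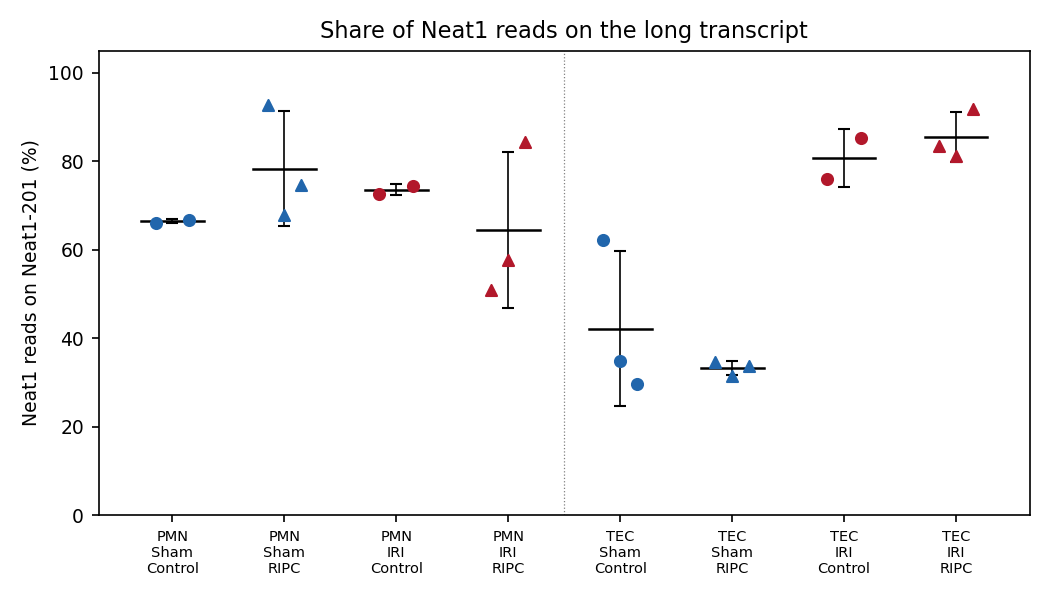
Share of Neat1 reads that Salmon assigned to the long form Neat1-201, in percent, by group. Each point is a library (blue, sham surgery; red, IRI; circles, control; triangles, RIPC), lines are means and bars are SD. TECs after IRI lie between 76.1% and 91.9% and TECs after sham surgery between 29.6% and 62.2%; the PMN groups overlap.

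The levels of the forms stand behind this share. The long form was at 391, 44.0 and 158 RPM in sham control TECs and at 243, 168 and 155 in sham RIPC TECs. The IRI libraries had 557 and 740 in control TECs and 1310, 634 and 566 in RIPC TECs, above every sham library. The short form was at 238, 82.2 and 375 in sham control TECs and at 457, 364 and 304 in sham RIPC TECs. The IRI libraries had 174 and 127 in control TECs and 249, 146 and 49.8 in RIPC TECs. The short form thus lay lower after IRI in most libraries, with an overlap that came from replicates 1 and 2 of the sham control TECs and replicate 1 of the IRI RIPC TECs.

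Tested as single transcripts among 57164 in the 11 TEC libraries, neither form passed the threshold. With edgeR's quasi-likelihood test, Neat1-201 had a log2 difference of 1.75 ± 0.45 between IRI and sham surgery (unadjusted p = 0.00124, adjusted p = 0.121). Neat1-202 had a log2 difference of -1.20 ± 0.46 (unadjusted p = 0.0180, adjusted p = 0.300). The same fit called 0.395% of transcripts, and the uncertainty of Salmon's assignment is not part of it. Leaving out replicate 2 of the sham control TECs gave 1.505 for Neat1-201 (adjusted p = 0.184).

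**Figure D3:**
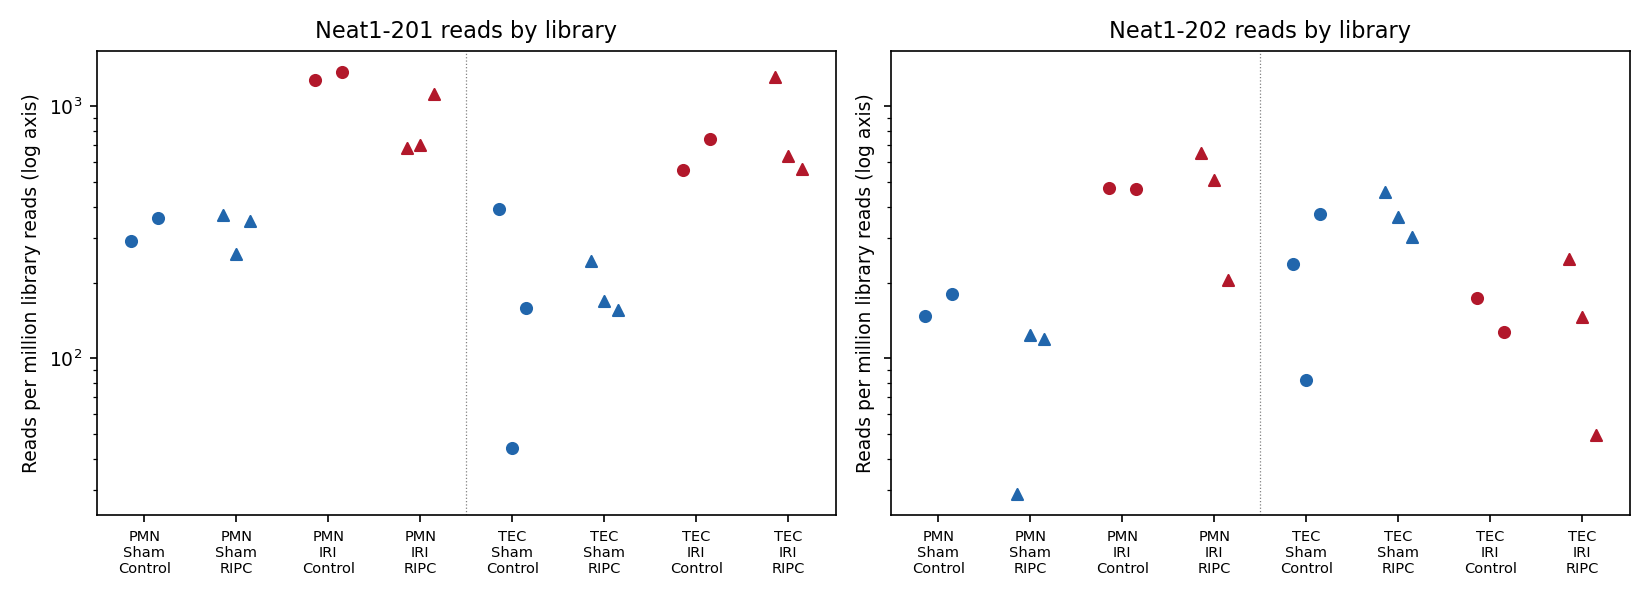
Levels, in RPM, of the long form Neat1-201 (left) and the short form Neat1-202 (right), on log axes. Each point is a library (blue, sham surgery; red, IRI; circles, control; triangles, RIPC). In TECs the long form was at 44.0 to 391 after sham surgery and 557 to 1310 after IRI, and the short form at 82.2 to 457 and 49.8 to 249; in PMNs both forms were higher after IRI.

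A long RNA gives more reads per molecule. When reads were divided by the effective length, the long form was under 50% of Neat1 in 19 of 21 libraries, all but replicate 1 of the sham RIPC PMNs and replicate 3 of the IRI RIPC TECs. Its share of Neat1 was 4.70% to 16.6% in TECs after sham surgery and 27.2% to 58.1% after IRI, still without overlap. In PMNs it was 19.2% to 61.3% after sham surgery and 11.5% to 40.3% after IRI. Priming was on poly(A) tails and the long form ends in a triple helix, so the forms may have been captured unequally. The per-length shares describe the cDNA, and shares of molecules in the cells were not measured.

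Other values moved with surgery in TECs. The neutrophil sum was 1.26 to 28.8 RPM after sham surgery and 23.3 to 106 after IRI. At its highest it was 1.91% of the lowest PMN library. The proximal tubule sum was 3464 to 7429 after sham surgery and 919 to 3567 after IRI, with an overlap of 1 library on each side. The macrophage sums overlapped (2.50 to 22.1 and 4.69 to 31.8), and so did the erythrocyte sums (4.48 to 571 and 80.2 to 806). The part of these cells in the share of the long form was not tested. An alternative added after seeing the data left out the library of each TEC group that held the most neutrophil markers. The groups still did not overlap and the difference was 40.5 points. In this small subset few splits were possible, and the exact permutation test did not pass the threshold.

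Summed over its transcripts, Neat1 did not pass the threshold in TECs. Its level after sham surgery was 929, 162 and 690 in control libraries and 899, 776 and 518 in RIPC libraries. The IRI levels were 933 and 1141 in control libraries and 1618, 709 and 912 in RIPC libraries. The surgeries overlapped. The log2 difference was 0.66 ± 0.39 in edgeR's quasi-likelihood test (adjusted p = 0.472, interval -0.11 to 1.43). This direction depends on length: with an offset for the mean transcript length it was -0.66, as the reads of the longer form then count less.

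Malat1 did not pass it either. Its level in TECs was 5749, 1765 and 6400 in sham control libraries and 7870, 7026 and 5477 in sham RIPC libraries. The IRI levels were 7166 and 13340 in control libraries and 9905, 6606 and 10222 in RIPC libraries, and the surgeries overlapped. The log2 difference was 0.75 ± 0.30 (edgeR, adjusted p = 0.271, interval 0.15 to 1.34). Without a filter on low counts it was 0.74 with an adjusted p of 0.0136, a call the filtered fit did not make. Of 25917 genes, 1.4% were called in this comparison, 0.255% higher and 1.15% lower after IRI. The median log2 difference of all these genes was 0.15.

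Neither gene passed the threshold in any of the 4 comparisons of RIPC with control. Log2 differences here are RIPC against control. After sham surgery in PMNs the log2 difference was -0.24 ± 0.24 for Neat1 (edgeR, adjusted p = 0.897, interval -0.72 to 0.24). For Malat1 it was 0.65 ± 0.30 (edgeR, adjusted p = 0.705, interval 0.06 to 1.25). After IRI in PMNs it was -0.41 ± 0.24 for Neat1 (adjusted p = 0.920, interval -0.89 to 0.07) and -0.11 ± 0.30 for Malat1 (adjusted p = 1, interval -0.69 to 0.48). In this last comparison the Neat1 libraries did not overlap, with 1917 and 2197 in control and 1582 to 1607 with RIPC. Without the Umod-rich sham control library the differences after sham surgery were 0.08 for Neat1 and 1.24 for Malat1. With all libraries, the Malat1 interval after sham surgery held only positive values, while the unadjusted p of that edgeR test was 0.0605. That interval is thus too narrow to be read as a call.

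In TECs the RIPC intervals were wider. After sham surgery the log2 difference was 0.30 ± 0.53 for Neat1 (edgeR, adjusted p = 1, interval -0.74 to 1.33) and 0.54 ± 0.41 for Malat1 (adjusted p = 0.870, interval -0.26 to 1.34). Without replicate 2 of the sham control TECs these were -0.14 and 0.17, so that 1 library decided the sign of the Neat1 value. After IRI it was 0.06 ± 0.59 for Neat1 (adjusted p = 1, interval -1.10 to 1.22) and -0.20 ± 0.45 for Malat1 (adjusted p = 1, interval -1.09 to 0.69).

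Across all genes edgeR called 0.004% after sham surgery in PMNs, 0% after IRI in PMNs, 0% after sham surgery in TECs and 0.00386% after IRI in TECs. At an unadjusted p under 0.05 the counts were 1150, 680, 1175 and 1128 genes, and DESeq2 called 813, 429, 425 and 699. The interaction, whether the RIPC difference itself differed between surgeries, called 0% of genes in PMNs and in TECs (1434 and 1869 at an unadjusted p under 0.05, and 669 and 597 by DESeq2). Its log2 value in PMNs was -0.17 ± 0.35 for Neat1 (adjusted p = 1.00) and -0.76 ± 0.42 for Malat1 (adjusted p = 0.762). In TECs it was -0.24 ± 0.79 for Neat1 (adjusted p = 1.00) and -0.74 ± 0.61 for Malat1 (adjusted p = 0.951).

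The ratio of Neat1 to Malat1 reads, which needs no scaling between libraries, was lower with RIPC in PMNs. Malat1 reads exceeded Neat1 reads in every library. In PMNs the log2 ratio was -0.97 and -1.41 in sham control libraries and -1.86, -2.42 and -2.10 in sham RIPC libraries. The IRI ratios were -0.21 and -0.20 in control libraries and -0.63, -0.47 and -0.41 in RIPC libraries. Within each surgery every RIPC library lay below every control library. Averaged over surgeries the difference was -0.62 (two-sided exact permutation test within surgeries, p = 0.010, the smallest of this design, adjusted p = 0.035 over 14 tests). The mean log2 ratio was -1.19 in control and -2.13 with RIPC after sham surgery, and -0.21 and -0.50 after IRI. Without the Umod-rich library the difference was -0.72. Computed from reads per effective length it was -0.66 and no longer passed (exact permutation test, p = 0.10).

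In TECs the ratio passed no test. The log2 ratio was -2.63, -3.44 and -3.21 in sham control TECs, -3.13, -3.18 and -3.40 in sham RIPC TECs, -2.94 and -3.55 in IRI control TECs and -2.61, -3.22 and -3.49 in IRI RIPC TECs. All 4 groups overlapped. The difference of RIPC against control was -0.0018 (exact permutation test, p = 0.995, adjusted p = 0.995), and that of IRI against sham surgery was -0.0091 (p = 0.965, adjusted p = 0.995). The latter also depends on length, since it was -1.07 per effective length (exact permutation test, p = 0.005). The share of the long form of Neat1 passed no test of RIPC either. The difference was 1.38 points in PMNs (exact permutation test, p = 0.890, adjusted p = 0.995) and -2.07 points in TECs (p = 0.795, adjusted p = 0.995).

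**Figure D4:**
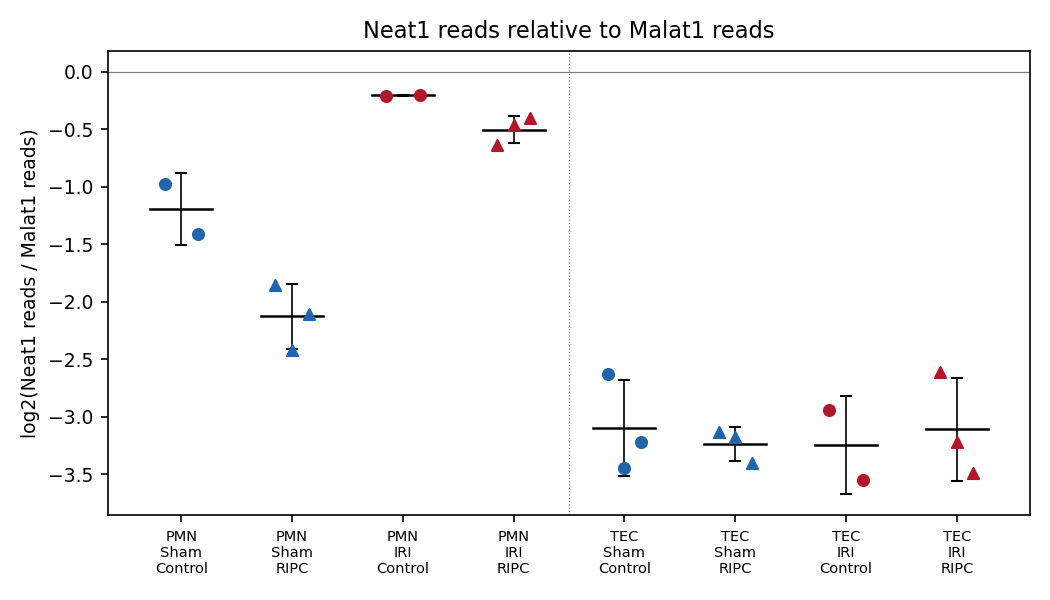
Log2 ratio of Neat1 reads to Malat1 reads by group; at 0 the counts would be equal. Each point is a library (blue, sham surgery; red, IRI; circles, control; triangles, RIPC), lines are means and bars are SD. In PMNs the RIPC libraries lie below the control libraries within each surgery, and TECs lie between -3.55 and -2.61 in all 4 groups.

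Between the cell types Malat1 was lower in PMNs, and Neat1 passed no test. After sham surgery the Malat1 level in PMNs was 0.274 times that in TECs, a log2 difference of -1.87 ± 0.33 (edgeR, adjusted p = 0.00208). After IRI it was 0.242 times that in TECs, -2.04 ± 0.34 (adjusted p = 0.00168), and there the cell types did not overlap. These fits called 2.62% of 31769 genes after sham surgery (1.49% higher and 1.13% lower in PMNs) and 2.67% after IRI (1.49% higher and 1.17% lower). With the control arm alone the adjusted p of Malat1 was 0.0999 after sham surgery and 0.119 after IRI, at log2 differences of -1.94 and -2.11. Neat1 after sham surgery had a log2 difference of -0.47 ± 0.38 (adjusted p = 0.569, interval -1.22 to 0.28). After IRI, a contrast touched by the choice of Neat1, its log2 difference was 0.78 ± 0.40, given with no test.

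The forms of Neat1 also differed between the cell types after sham surgery. PMNs held 66.1% to 92.8% of Neat1 reads on the long form and TECs 29.6% to 62.2%, without overlap. The difference was 34.7 points (exact permutation test, p = 0.010, adjusted p = 0.035). After IRI the difference was -14.1 points and the cell types overlapped (exact permutation test, p = 0.067, adjusted p = 0.187, the smallest p being 0.017). The log2 ratio of Neat1 to Malat1 reads after sham surgery was -1.75 ± 0.57 (SD, n = 5) in PMNs and -3.17 ± 0.29 (n = 6) in TECs, without overlap. Its difference was 1.51 (exact permutation test, p = 0.005, the smallest of this design, adjusted p = 0.035). Per effective length it was 0.73 and did not pass (exact permutation test, p = 0.055). After IRI the PMN ratio was -0.38 ± 0.18 and the TEC ratio -3.16 ± 0.39 (n = 5 each), given with no test.

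For Malat1 the split between transcripts passed no test between groups, and it placed most reads at the 5′ end of the gene. Malat1-203 took 72.7% to 81.9% of Malat1 reads in every library, and Malat1-201 took nearly all of the rest. The 5 tests of this share between groups gave differences of at most 1.53 points in size and an adjusted p of 0.995 each (exact permutation tests, unadjusted p from 0.44 to 0.82). Malat1-202 and Malat1-204, which cover the 3′ part, had at most 23 reads. Of the 436 positions at which a 50-base read can start on Malat1-203, 391 are also in Malat1-201 and 45, those across its splice junction, are its own. The junction (bases 395 to 474 of the transcript) is printed because only reads across it set the transcript apart, with the bases of the second exon in capitals.
Malat1-203 junction: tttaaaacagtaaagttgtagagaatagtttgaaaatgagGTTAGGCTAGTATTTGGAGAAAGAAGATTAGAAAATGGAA

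The same 5′ end is covered by a gene on the other strand. Gm37376 (ENSMUSG00000102349.1, chr19:5801941-5802393, plus strand) shares 404 of its possible 50-base reads with Malat1-201 on the opposite strand, and 109 with Malat1-203. It held 11618 to 172261 reads per library. Its part of the reads of both genes together was 34.3% to 41.2%, with a median of 36.8%, in PMNs and TECs alike. Without strand in the library, its reads and those of Malat1 cannot be told apart. Gm37376, like Malat1, was lower in PMNs than in TECs after sham surgery (edgeR, log2 difference -1.93 ± 0.33, adjusted p = 0.00190) and after IRI (-1.97 ± 0.34, adjusted p = 0.00266). With reads that cannot be told apart, these values are not a result separate from that of Malat1. With its reads added to Malat1 no call on the Malat1 level changed.

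**Figure D5:**
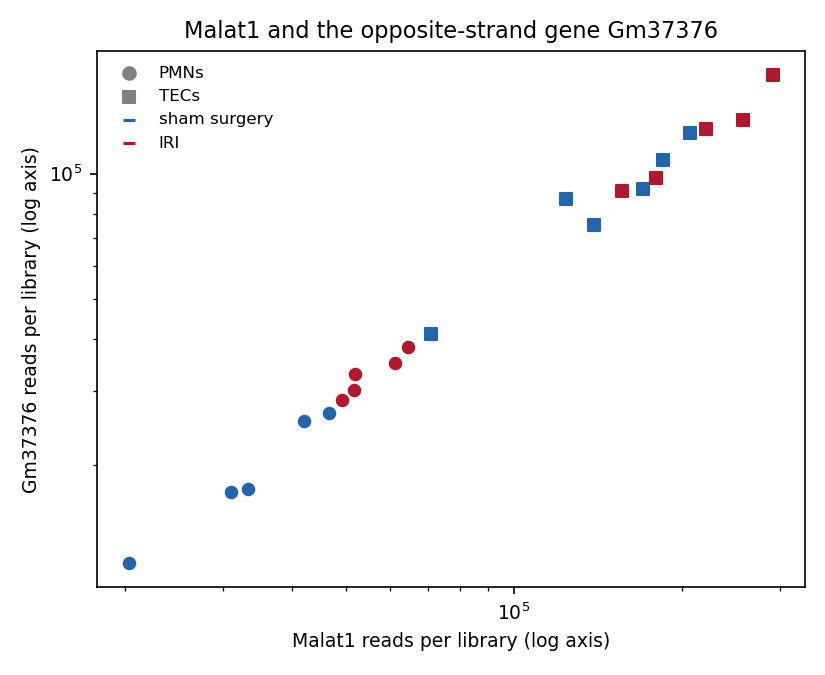
Reads of Gm37376 against reads of Malat1 in the 21 libraries, on log axes. Circles are PMNs, squares TECs, blue sham surgery and red IRI. The libraries lie along a line, with Gm37376 at 34.3% to 41.2% of the reads of both genes.

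The proteins and RNAs around these RNAs mostly did not pass the test. Of 16 genes of paraspeckle proteins 15 were tested, and edgeR called 0 in each of the 10 comparisons, while DESeq2 called Cpsf7 in 4 of them. After IRI in TECs, where the long form of Neat1 took a larger share, 6 had values above 0 and 9 below, with a median log2 difference of -0.12 against 0.15 for all genes. None of them had an unadjusted p under 0.05 there and DESeq2 called 0. Hnrnpk, the member with the most counts, is known to favour the long form of Neat1 and had -0.18 ± 0.31 in TECs and 0.93 ± 0.38 in PMNs. Ewsr1, an RNA-binding protein of the FET family, had -0.12 ± 0.34 in TECs and 1.74 ± 0.56 in PMNs. In PMNs the list's median between IRI and sham surgery was 0.93, with 11 values above 0 and 4 below, and all genes had -0.01. DESeq2 called Cpsf7 there, and 3 members had an unadjusted p under 0.05. Of all genes in that PMN contrast 49.7% lay above 0, 11.8% had an unadjusted p under 0.05 and DESeq2 called 7.82%.

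All 27 genes of nuclear speckle proteins were tested. After IRI in PMNs 23 had values above 0 and 4 below, with a median log2 difference of 0.85, and edgeR called 0. There 7 had an unadjusted p under 0.05 and DESeq2 called Clk1, Sf3b1, Son, Srrm2 and Tra2a, beside the shares over all genes of 11.8% and 7.82%. This is the contrast by which Neat1 was chosen, and nothing is read from these counts. Son, a scaffold of the speckles, had 1.81 ± 0.34 and Srrm2, also a scaffold, had 1.82 ± 0.38. After IRI in TECs the median was 0.07, edgeR called 0, 1 member had an unadjusted p under 0.05, and DESeq2 called U2af1. Over all genes of that TEC contrast the median was 0.15. There edgeR called 1.4%, 15.0% had an unadjusted p under 0.05 and DESeq2 called 8.62%. Clk1, a kinase of splicing factors, was the only member that edgeR called in any comparison. It was higher in PMNs than in TECs after IRI, by 2.42 ± 0.54 on the log2 scale (adjusted p = 0.0151), where edgeR called 2.67% of all genes.

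The list of 3′ end processing and binding genes bears on which Neat1 form is made and how long both RNAs last. It holds CPSF6 and NUDT21, which favour cleavage at the early poly(A) signal, subunits of RNase P, and Elac2, which trims the small RNA cut off Malat1. Of its 18 genes, 17 were tested in PMNs and 18 in TECs, and edgeR called 0 in all comparisons, while DESeq2 called at most 3 in any, those 3 between the cell types after IRI, where it called 11.7% of all genes. In TECs Cpsf6 had a log2 difference of -0.05 ± 0.48 between IRI and sham surgery and Nudt21 had 0.61 ± 0.61. Elac2 and Rpp38, an RNase P subunit, had unadjusted p-values under 0.05 and were called by DESeq2, with log2 differences of -2.74 and -3.62. These values average arms that lay apart after IRI, where RIPC against control was 5.79 ± 1.43 for Elac2 and -4.68 ± 2.07 for Rpp38. Between surgeries in TECs 15.0% of all genes had an unadjusted p under 0.05 and DESeq2 called 8.62%. The list's median there was 0.01. Of the 4 transcription factors known to activate Neat1, edgeR called 0 in all comparisons and DESeq2 called Hif1a between the cell types after IRI. Hif1a encodes a protein that accumulates in low oxygen. Its RNA had a difference between surgeries of 2.39 ± 0.94 in PMNs (edgeR, adjusted p = 0.41) and 1.00 ± 0.54 in TECs (edgeR, adjusted p = 0.42). In PMNs the others had -0.02 (Epas1), -1.83 (Trp53) and -0.85 (Hsf1). In TECs they had 1.58 (Epas1), -0.38 (Trp53) and -1.23 (Hsf1).

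Among 20 other long noncoding RNAs tested, edgeR called 2 after IRI in TECs. Mir22hg, the host of miR-22, had 387 to 2138 reads after sham surgery and 2208 to 3887 after IRI, without overlap. Its log2 difference was 2.24 ± 0.51 (adjusted p = 0.045). Airn, the imprinted RNA antisense to Igf2r, had 112 to 1378 reads after sham surgery and 0 to 5 after IRI (edgeR, -7.50 ± 1.36, adjusted p = 0.017). It overlaps Igf2r, which itself had 1435 to 2178 reads after sham surgery and 178 to 770 after IRI, so the strand of these reads is uncertain. In TECs 16 of the 20 had values above 0 and the median was 1.12, with 5 unadjusted p-values under 0.05 and 7 calls by DESeq2. Over all genes of this contrast 53.6% lay above 0, 15.0% had an unadjusted p under 0.05, edgeR called 1.4% and DESeq2 called 8.62%. In PMNs 8 were above 0, the median was -0.32 and edgeR called 0 (2 unadjusted p-values under 0.05, and Snhg6 by DESeq2). Over all genes of that PMN contrast 49.7% lay above 0 and 11.8% had an unadjusted p under 0.05. There edgeR called 0.416% and DESeq2 called 7.82%. The annotation holds 35 genes within 200 kb of the pair, of which 24 were tested in PMNs and 27 in TECs. Among them edgeR called only Gm37376, whose reads cannot be told apart from those of Malat1, between the cell types. There DESeq2 called 8 of 27 neighbours after sham surgery and 6 after IRI, beside 15.0% and 11.7% of all genes, and in TECs it called 0 between surgeries.

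Likeness between genes was measured by Pearson's r of log2 normalized CPM, as a description over libraries that share depth and surgery. Over the 10 PMN libraries and 8757 genes, the genes most like Neat1 were Sorl1 (r = 0.967), Pim1 (0.966) and Gm42793 (0.966), and Malat1 had 0.623. Pim1 is a kinase that cytokine signals induce, and Sorl1 is a sorting receptor. The genes most like Malat1 in PMNs were Gm37376 (0.991), Cmip (0.903) and March6 (0.882). Over the 11 TEC libraries and 9007 genes, those most like Neat1 were A230103L15Rik (0.934), Slc20a1 (0.932), a phosphate transporter, and Cebpg (0.924), a transcription factor of the C/EBP family. Those most like Malat1 in TECs were Gm37376 (0.987), Bnip2 (0.976) and Cebpg (0.967). The reads of Gm37376 cannot be told apart from those of Malat1, so its r in either cell type is not read as likeness of separate RNAs. Neat1 and Malat1 had r = 0.919 with each other in TECs. Both were lowest there in replicate 2 of the sham control group, and no r was computed without that library.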

How the data were processed

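RNA-Seq was performed on PMNs and TECs isolated 24 hours after surgery (21 libraries, 8 groups). Reads were trimmed with Trim Galore 0.6.4 and quantified with Salmon 1.0.0 per the labels, which also name FastQC, MultiQC, DESeq2 and build mm10. The authors deposited Salmon's estimated counts of each transcript as raw values, together with effective lengths and TPM values. The deposited TPM values were not used, and TPM was recomputed here from the estimated counts and the effective lengths that the authors deposited.

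Each library came in 2 files, whose estimated counts were added. The files of a library agreed more closely than independent counts would (median squared difference over the sum 0.118 to 0.189, against 0.455), so the sums overstate the depth, and counts cover counting error only. Transcripts were assigned to genes with Gencode M21 of GRCm38, while the paper's methods name vM23. Of 140748 transcripts 884 had no match and held 0.139% to 0.255% of reads. The summed counts were rounded to whole numbers. The 3717 genes of chromosomes X, Y and M were left out of tests, after the study's methods. Printed sequences and the count of shared 50-base reads came from the same Gencode transcripts and GRCm38. The U-rich and A-rich letters searched were read from the end of Neat1-201.

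Levels were tested with edgeR 4.0.16 (limma 3.58.1, R 4.3.3): quasi-likelihood test, a mean per group, TMM, filterByExpr, within PMNs, within TECs or over all libraries for comparisons of cell types, with Benjamini-Hochberg adjustment over all genes and a threshold of 0.05. Intervals of log2 differences are 1.96 SE on either side. They make no allowance for the small number of libraries and can be narrower than the edgeR test implies. Comparisons of surgeries averaged the arms. Shares and ratios were tested with exact permutation tests within the levels of the other factor (two-sided, adjusted over 14 tests). The code was tested on simulated data. DESeq2 1.42.0 was an alternative, with others given under the processing dependence: no filter, DESeq2 size factors, each file alone, an offset for length, a replicate block, single arms, reads per effective length, and each library left out.

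The members and lists were chosen with earlier results of these data known. Named genes were the members and their transcripts, the 3 genes most like each member in each cell type with a mean of at least 10 CPM, and from each list the members with the most counts plus those called. Cpsf6, Nudt21, Elac2, Rpp38, Tra2a, Son, Srrm2, Sf3b1, Snhg6, Cpsf7, U2af1, Igf2r, Epas1, Trp53 and Hsf1 were named after their values were seen. Of 22 symbols in the list of other long noncoding RNAs 21 were matched. The transcript-level test, the addition of Gm37376 to Malat1 and the removal of TEC libraries rich in neutrophil markers were also added after seeing the data. Replicate numbers did not pair libraries (same-number correlations of deviations from -0.021 to 0.024 in PMNs and from -0.090 to 0.110 in TECs).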

Additional observations from a re-analysis of the deposited data

How the results depend on the processing

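Of 674 alternative values of the levels, shares and ratios, 610 kept their direction and their side of the threshold, 38 changed sign, 14 passed the threshold only under the alternative, 9 passed it only as reported and 3 moved by more than the replicate spread. These calls held in every leave-one-out fit. The long share of Neat1 was higher in TECs after IRI (42.2 to 50.4 points) and in sham PMNs than TECs (31.1 to 39.7). The ratio was lower with RIPC in PMNs (-0.72 to -0.51) and higher in sham PMNs than TECs (1.40 to 1.62). Malat1 was lower in PMNs than TECs after both surgeries (-2.24 to -1.74). The cause of changes below was not tested, except where fewer libraries limit the smallest p.

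With an offset for transcript length, the Neat1 log2 difference was -0.66 between surgeries in TECs, -0.12 for RIPC after IRI in TECs and 0.63 for the interaction in PMNs. Per effective length, RIPC in TECs changed the share of the long form of Neat1 by 2.29 points, that of Malat1-203 by -0.013 points and the log2 ratio by 0.037. By exact permutation tests per effective length, IRI in TECs changed the share of Malat1-203 by -0.30 points (p = 0.005) and the ratio by -1.07 (p = 0.005), the RIPC ratio in PMNs was -0.66 (p = 0.10), and the ratio of PMNs against TECs was 0.73 after sham surgery (p = 0.055) and 3.20 after IRI. The numbers do not pair the libraries, and a replicate block (exact permutation tests for shares and ratios) gave -0.056 for Neat1 with RIPC after IRI in TECs, -2.68 points for its long share with RIPC in PMNs, 44.2 points (p = 0.0625) for that share between surgeries in TECs, 34.2 points (p = 0.0625) between cell types after sham surgery, and log2 ratios of -0.65 (p = 0.125) for RIPC in PMNs, 0.046 for RIPC in TECs and 1.40 (p = 0.0625) between cell types. These p-values are the smallest that 5 pairs (0.0625) or 4 pairs (0.125) allow. Without a filter on low counts Malat1 passed between surgeries in TECs (0.74, adjusted p = 0.0136). File 2 alone gave a RIPC ratio of 0.0053 in TECs, and Gm37376 added to Malat1 gave 0.016 for the surgeries in TECs. The control arm alone gave -1.94 (adjusted p = 0.0999) and -2.11 (adjusted p = 0.119) for Malat1 between cell types after sham surgery and IRI, and 0.96 for Malat1 between surgeries in PMNs, where the RIPC arm gave 0.20. Without the TEC libraries richest in neutrophil markers the long share differed by 40.5 points and did not pass the exact permutation test.

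As single transcripts in TECs, Neat1-201 passed without a filter (1.73, adjusted p = 0.000256), with the block (1.89, adjusted p = 0.000107), and without sham control replicate 1, IRI control replicate 1 or IRI control replicate 2 (1.505 to 2.25 over all left-out libraries). Leaving out libraries turned the sign of small differences. For RIPC after sham surgery Neat1 ranged from -0.51 to 0.078 in PMNs and from -0.14 to 0.75 in TECs, and after IRI from -0.33 to 0.27 in TECs. Malat1 with RIPC after IRI ranged from -0.19 to 0.014 in PMNs and from -0.59 to 0.35 in TECs. The Neat1 interaction ranged from -0.46 to 0.11 in PMNs and from -0.69 to 0.21 in TECs. The long share ranged from -3.62 to 4.73 points for RIPC in PMNs, from -5.22 to 2.93 in TECs, and from -19.1 to -10.8 in PMNs against TECs after IRI. Without replicate 3 of the IRI RIPC PMNs this last difference passed by its unadjusted p. The share of Malat1-203 ranged from -0.094 to 1.02 for RIPC in TECs, from -0.90 to 0.21 between surgeries in TECs, and between cell types from -1.76 to 0.54 after sham surgery and from -0.64 to 1.89 after IRI. The ratio in TECs ranged from -0.15 to 0.15 for RIPC and from -0.16 to 0.14 for the surgeries.

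Counts of called genes depended strongly on the tool. Without a filter edgeR called 1289 genes between surgeries in TECs in place of 363, and DESeq2 called 2234. For the cell types the counts were 832 after sham surgery and 847 after IRI, 2222 and 1763 without a filter and 4753 and 3725 by DESeq2. Between surgeries in PMNs 104 became 971 and 1955, and 23 with the block. Without a filter edgeR called 139, 18, 54 and 71 genes for RIPC in sham PMNs, IRI PMNs, sham TECs and IRI TECs, and 1498 transcripts between surgeries in TECs in place of 226 (1103 with the block, 18 to 1092 with a library left out). Single arms called 1 and 25 genes between surgeries in TECs and 0 and 62 in PMNs. With a library left out the count between surgeries was 92 (without sham control replicate 2) to 714 (without IRI RIPC replicate 3) in TECs, and 5 (without IRI RIPC replicate 2) to 393 (without sham control replicate 1) in PMNs.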
